A study of Mus musculus with 9 samples.

Results

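Genes of NAD synthesis and metal binding were followed through single-nucleus RNA libraries of the mouse ventricle. They are Nmrk1, Nmrk2, Nampt, Nmnat1 and Nmnat3, which act in NAD salvage, and the metallothioneins Mt1 and Mt2. They are 7 of the 37840 genes in the deposited count tables. The set was assembled because Nmrk2 and Mt2 were much higher in the knockout libraries than in control libraries of the same age, so the members were chosen by their levels in KO P10 against control P10. The knockout values below are therefore a description with no test.

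The 9 libraries hold nuclei from ventricles of C57BL6/J mice, 3 libraries in each of 3 groups. Control P6 libraries came from mice of genotype ERRalphaHet/ERRgammaWT at postnatal day 6. Control P10 libraries came from mice of the same genotype at 9 to 10 days. KO P10 libraries came from ERRalphaKO/ERRgammaKO mice at 9 to 10 days. ERRα and ERRγ, encoded by Esrra and Esrrg, are orphan nuclear receptors that drive genes of mitochondrial energy metabolism. Both control groups also carry one lost ERRα allele, so no group is wild type at both loci. The promoter and cell type of the ERRγ deletion, the sex of the mice and whether a given ventricle was fresh or frozen are not given in the sources used here. The labels do not say that libraries of a group are separate animals, so p-values measure only the spread between these libraries.

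NAD is the electron carrier of glycolysis, fatty acid oxidation and the citric acid cycle, and it is consumed as a substrate by sirtuins and PARP enzymes. Cells rebuild it by salvage. Nampt converts nicotinamide to nicotinamide mononucleotide (NMN), and the kinases Nmrk1 and Nmrk2 make NMN from nicotinamide riboside. Nmrk1 is widely expressed, while Nmrk2 is the form known from skeletal and heart muscle. Nmnat1 in the nucleus and Nmnat3 in mitochondria join NMN to ATP to give NAD. Mt1 and Mt2 encode small cysteine-rich proteins that bind zinc and copper. Their genes are induced by metals through the transcription factor MTF1 and by glucocorticoids.

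The genes lie on 6 chromosomes. On mm10, Nmrk2 spans chr10:81198170-81202051 on the minus strand, a locus of 3.882 kb. Nmnat3 spans chr9:98287435-98420438 on the plus strand, of which 3.76% is exonic. Mt2 at chr8:94172664-94173568 and Mt1 at chr8:94179082-94180327 are neighbours on the plus strand. Nampt is at chr12:32819545-32853349 on the plus strand, Nmnat1 at chr4:149467572-149485202 on the minus strand and Nmrk1 at chr19:18631950-18652428 on the plus strand. All spans are from GENCODE vM21 and cover exons, introns and UTRs.

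Promoter windows of the 4 genes that the results turn on are shown because the metallothionein windows carry the metal response letters and the other 2 do not share them in that number. Each window is RefSeq sequence of GRCm38.p6, 280 bases long, read 5′ to 3′ on the gene's strand, with 250 bases before the start and 30 from the start base on. In the Mt1 window (chr8:94178839-94179118, plus strand) and the Mt2 window (chr8:94172368-94172647, plus strand) capitals mark matches to the core of the metal response element, TGCACNC or TGCGCNC on either strand. In the Nmrk2 window (chr10:81202008-81202287, minus strand) capitals mark a TATAAA box. In the Nmnat3 window (chr9:98296320-98296599, plus strand) capitals mark AAGGTCA, the letters bound by ERR proteins.
Mt1: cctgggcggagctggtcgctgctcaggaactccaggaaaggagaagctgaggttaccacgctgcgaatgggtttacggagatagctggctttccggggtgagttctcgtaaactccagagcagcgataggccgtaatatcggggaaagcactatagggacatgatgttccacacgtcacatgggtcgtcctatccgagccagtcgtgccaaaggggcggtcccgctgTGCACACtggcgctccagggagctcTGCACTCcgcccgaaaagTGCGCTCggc
Mt2: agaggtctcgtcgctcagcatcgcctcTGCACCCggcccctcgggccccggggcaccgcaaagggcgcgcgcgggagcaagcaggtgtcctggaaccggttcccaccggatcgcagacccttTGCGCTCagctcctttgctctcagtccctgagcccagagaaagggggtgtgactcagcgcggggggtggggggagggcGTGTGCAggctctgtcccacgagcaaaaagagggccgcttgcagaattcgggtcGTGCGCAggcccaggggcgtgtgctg
Nmrk2: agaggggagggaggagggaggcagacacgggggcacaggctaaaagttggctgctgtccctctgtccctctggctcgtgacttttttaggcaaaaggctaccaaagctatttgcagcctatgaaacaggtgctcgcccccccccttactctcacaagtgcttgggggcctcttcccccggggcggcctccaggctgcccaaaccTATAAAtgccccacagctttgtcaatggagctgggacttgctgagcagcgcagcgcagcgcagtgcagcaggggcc
Nmnat3: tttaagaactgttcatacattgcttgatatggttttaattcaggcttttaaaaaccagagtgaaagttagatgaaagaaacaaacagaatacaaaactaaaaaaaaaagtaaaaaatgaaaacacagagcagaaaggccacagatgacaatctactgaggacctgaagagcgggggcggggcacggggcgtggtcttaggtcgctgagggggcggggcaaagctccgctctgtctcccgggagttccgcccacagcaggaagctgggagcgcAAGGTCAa
The Mt1 window holds 3 of the metal response cores and the Mt2 window holds 4. Among all 32817 promoter windows of this length, 24.1% hold at least 1 such core and 1.73% hold 3 or more. Mt1 also holds 1 match to a glucocorticoid response element, searched on both strands as GNACA, any 3 bases and TGTNC, which begins 94 bases before the start and occurs in 0.436% of windows. The TATAAA of Nmrk2 begins 46 bases before the start, and 8.03% of windows hold one on the gene's strand. AAGGTCA occurs on either strand in 4.46% of windows; of the 7 members, only Nmnat3 has it, beginning 22 bases after the start, and the RefSeq start used here lies inside the span given above. A match of letters describes the sequence and does not show that a factor binds there.

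The 9 tables list 33000 barcodes, and totals ran from 2608067 to 5769630 UMIs (unique molecular identifiers, 1 per captured RNA molecule) per library. After filtering, 25543 nuclei were kept, with medians of 744 to 945 UMIs per library. Clusters named by markers held 9321 nuclei that were cardiomyocyte-like, 4272 that were fibroblast-like, 2204 that were endothelial-like and 1404 that were endocardial-like. Cardiomyocyte-like nuclei had 8 of 12 cardiomyocyte markers above the other nuclei, 5 of them by over 1.5-fold, and the other classes had all of their own 11, 12 and 10 markers above. A further 5813 nuclei lay in 3 clusters with little of the nuclear RNA Malat1, which made up 11.4%, 20.1% and 33.2% of kept nuclei in control P6, control P10 and KO P10. The largest of these clusters, with 3901 barcodes, was closest to the erythroid markers, and hemoglobin genes were among its top genes. The others, with 683 and 1229, were closest to the cardiomyocyte markers. Different clusters held most cardiomyocyte-like nuclei in each group, with 97.7% in 1 cluster at P6, 80.2% in another at P10 and 90.5% in yet another in the knockout. KO P10 library 2 stood apart: 7 erythroid markers summed to 9990 CPM (UMIs of a gene or list per 1000000 UMIs of the class in that library) in its cardiomyocyte-like nuclei against 2917 and 2962 in the other knockout libraries and 1249 to 2252 in control P10, and 464 of its barcodes, shared with KO P10 library 1, were left out. Mitochondrially encoded genes took 40.8% of the UMIs of control P10 library 1 and 8.56% or more of the other control P10 libraries, against 7.13 to 14.7% in the knockout and 2.61% or less at P6. These genes were left out of the filter on UMIs, the medians, the clustering and the totals under each CPM.

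Esrra was measured at 94.2, 105 and 70.2 CPM in cardiomyocyte-like nuclei of the control P10 libraries and at 10.5, 21.5 and 23.6 in the knockout (log2 fold change −2.32 ± 0.32 SE, edgeR, p adjusted over all genes tested by Benjamini-Hochberg = 0.000243). Esrrg was at 1798, 1369 and 1587 in control P10 and at 988, 602 and 797 in the knockout (−1.14 ± 0.28, adjusted p = 0.0139). Both receptors were lower in every knockout library, and RNA of both was still counted there.

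Nmrk2 fell steeply between the 2 control ages in cardiomyocyte-like nuclei and stood near its P6 level in the knockout. Its level was 28.1, 328 and 300.4 CPM in the 3 P6 libraries (mean 219 ± 166, SD, n = 3), from 27, 407 and 294 UMIs. At P10 it was 12.3, 37.5 and 28.6 (26.1 ± 12.8, n = 3), from 9, 58 and 46 UMIs. P6 library 1 was thus inside the P10 range while the other P6 libraries were far above it, so the control groups overlapped. In the knockout the level was 219, 131 and 285 (212 ± 77, n = 3), above every control P10 library.

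From P6 to P10 Nmrk2 fell by 2.86 on the log2 scale (SE 0.57, edgeR, adjusted p = 0.00358), and this call was kept on leaving out each of the 9 libraries in turn, with log2 values of −2.42 to −3.35. An exact two-sided permutation test of the 6 library values gave p = 0.3, where 3 libraries against 3 cannot go below 0.1. Fitted on the control libraries alone, the difference was −2.84 (edgeR, adjusted p = 0.00342). The P10 control libraries are also the ones that helped choose the gene, so a low level in them is not independent of that choice. In this comparison 17.5% of the 10046 genes tested were called, 8.3% higher and 9.17% lower at P10, and 2 of the 6 members tested, 1 in each direction. With library totals alone in place of scaling factors, the median over all genes moved from −0.03 to −0.17, and 515 of 1432 called genes were higher against 834 of 1755. Knockout minus control P10 was 2.86 ± 0.57 on the log2 scale for Nmrk2, with 2.57 to 3.11 over the libraries left out. In that contrast 14.4% of all genes passed the threshold, 7.28% higher and 7.11% lower, and no call is given for the members.

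**Figure D1:**
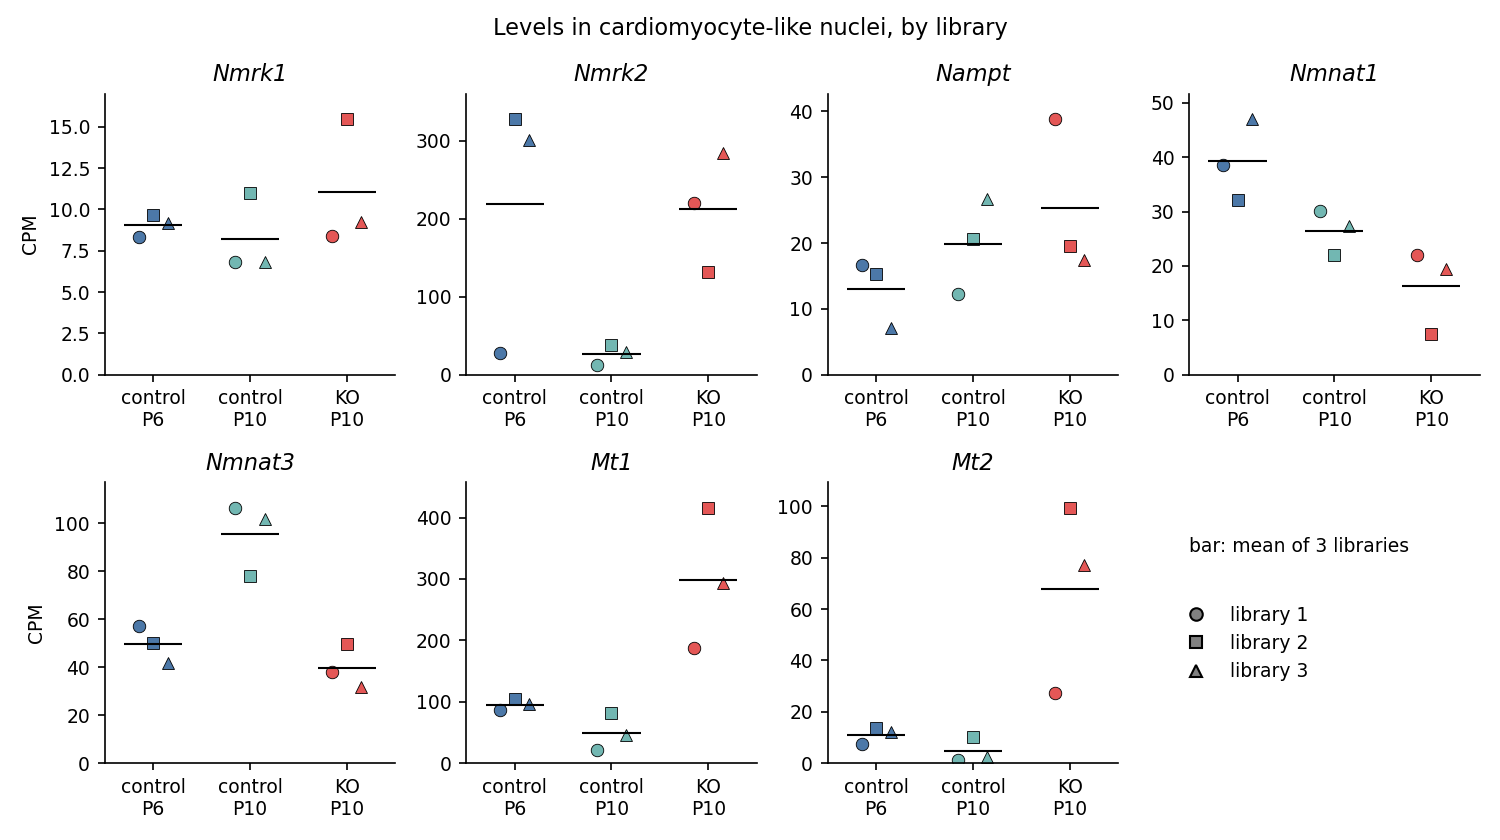
Level of each of the 7 genes in cardiomyocyte-like nuclei, in CPM, for control P6, control P10 and KO P10; each marker is 1 library and each bar the mean of 3. Nmrk2 in P6 library 1 (28.1) lies at the P10 level while the other P6 libraries are at 300.4 and 328, and the Nmnat3 points of control P10 (78.2 to 106) stand above both other groups.

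Nmrk2 lies within the span of an antisense gene, Atcayos, which covers all 3882 of its bases on the opposite strand. Atcayos was measured at 882, 340.4 and 476 CPM in the P6 libraries, at 531, 554 and 509 in control P10 and at 582, 860.0 and 725 in the knockout. The P6 library with the least Nmrk2 had the most Atcayos. Whether counting used strand is not given in the sources used here, so reads of the 2 genes cannot be told apart with certainty.

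The other kinases and the rate-setting enzyme of salvage, Nampt, were sparse. Nmrk1 was at 8.33, 9.66 and 9.20 CPM at P6, at 6.82, 11 and 6.83 in control P10 and at 8.40, 15.5 and 9.25 in the knockout, from 5 to 23 UMIs per library. All 3 groups overlapped, and Nmrk1 did not pass the filter on low counts in this class. Nampt was at 16.7, 15.3 and 7.15 at P6, at 12.3, 20.7 and 26.7 in control P10 and at 38.8, 19.5 and 17.5 in the knockout, again with overlap of neighbouring groups. Its P10 minus P6 difference was 0.76 ± 0.39 on the log2 scale (edgeR, adjusted p = 0.189), and knockout minus control was 0.17 ± 0.36. The Nampt difference with age passed the threshold when nuclei were classed by their own marker UMIs (1.59, adjusted p = 0.00478) or when the 2 cardiomyocyte clusters of low Malat1 were added (1.13, adjusted p = 0.0365).

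The order of the salvage genes per kilobase depended on the length used. Per kilobase of exon, in control P6 Nmrk2 was at 118 CPM per kb, ahead of Nmnat1 at 12.9 and Nmnat3 at 9.93, and Nampt and Nmrk1 were at 2.58 and 2.46. In control P10 Nmnat3 was at 19.1 and Nmrk2 at 14.1, but single libraries spanned 15.6 to 21.3 for Nmnat3 and 6.63 to 20.2 for Nmrk2, so these neighbours overlapped. In the knockout Nmrk2 was at 114, Nmnat3 at 7.95, Nmnat1 at 5.37, Nampt at 5.0 and Nmrk1 at 2.99. Per kilobase of gene span, introns included, Nmrk2 was first in all 3 groups at 56.3, 6.72 and 54.5 CPM per kb, Nmnat1 was at 2.23, 1.5 and 0.93 and Nmnat3 at 0.37, 0.72 and 0.30. Nuclear RNA includes introns, so neither length is exact, above all for the long Nmnat3.

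Of the 2 enzymes that turn NMN into NAD, Nmnat3 rose with age and Nmnat1 did not pass the test. Nmnat3, the mitochondrial enzyme, was at 57.3, 49.9 and 41.9 CPM at P6, at 106, 78.2 and 102 in control P10 and at 37.8, 49.8 and 31.8 in the knockout, with means of 49.7 ± 7.70, 95.5 ± 15.2 and 39.8 ± 9.12 (SD, n = 3). Every control P10 library was above every library of the other groups. Nmnat3 rose by 1.08 ± 0.28 on the log2 scale from P6 to P10 (edgeR, adjusted p = 0.0143), and the exact permutation test gave its smallest possible p of 0.1. The call was lost without P6 library 2 (1.08, adjusted p = 0.0597), P6 library 3 (0.94, 0.0858) or P10 library 3 (1.06, 0.0567), while DESeq2 gave 1.11 (adjusted p = 0.00843) and the control libraries alone 1.09 (edgeR, adjusted p = 0.00957). Knockout minus control P10 was −1.33 ± 0.28, the opposite in sign to Nmrk2.

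Nmnat1, the nuclear enzyme, was at 38.5, 32.2 and 47.0 CPM at P6, at 30.03, 22.0 and 27.3 in control P10 and at 22.0, 7.40 and 19.5 in the knockout. The P6 libraries lay above the P10 libraries without overlap, but the difference of −0.44 ± 0.32 did not pass the threshold (edgeR, adjusted p = 0.353; exact permutation p = 0.1). Knockout minus control P10 was −0.84 ± 0.35, and those groups met at about 22 CPM. The lowest value, 7.40, was in KO P10 library 2, the one with the erythroid signal.

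Mt1 and Mt2 had their highest levels in the knockout libraries. Mt1 was at 86.5, 104 and 96.0 CPM in cardiomyocyte-like nuclei at P6, at 21.8, 81.4 and 45.3 in control P10 and at 188, 416 and 293 in the knockout. Mt2 was at 7.29, 13.7 and 12.3 at P6, at 1.36, 10.33 and 2.48 in control P10, from 1, 16 and 4 UMIs, and at 27.3, 99.5 and 77.05 in the knockout, from 26, 148 and 75 UMIs. For both genes all 3 knockout libraries stood above all 6 control libraries, and control P10 library 2 was the highest of its group.

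Knockout minus control P10 was 2.53 ± 0.36 for Mt1 and 3.68 ± 0.54 for Mt2 on the log2 scale. Within the knockout, library 2 had the most of both metallothioneins and also the most erythroid RNA, and the part of that signal in the result was not tested. The other 2 knockout libraries had erythroid sums of 2917 and 2962 CPM, also above the 1249 to 2252 of control P10. Over the libraries left out, the Mt1 difference ran from 2.12 to 2.99 and the Mt2 difference from 3.18 to 4.87, the last without control P10 library 2, which held 16 of the 21 control P10 UMIs of Mt2. With age, Mt1 differed by −0.80 ± 0.36 (edgeR, adjusted p = 0.134) with no overlap of the control groups, and among the libraries left out it passed the threshold only without control P10 library 2 (−1.24, adjusted p = 0.0349). Mt2 differed by −0.98 ± 0.65 (adjusted p = 0.313), with overlap.

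Ribosomal protein genes, short RNAs like the metallothioneins, were also lowest in control P10. Their 92 genes summed to 5594 to 8435 CPM in cardiomyocyte-like nuclei at P6, to 1690 to 4166 in control P10 and to 5617 to 10393 in the knockout. The P10 controls were the lowest group without overlap, as they were for Mt1. The P6 and knockout ranges of these sums overlapped, while those of Mt1 and of Mt2 did not. The part of this shift in the results for Mt1, Mt2 and Nmrk2 was not tested.

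**Figure D2:**
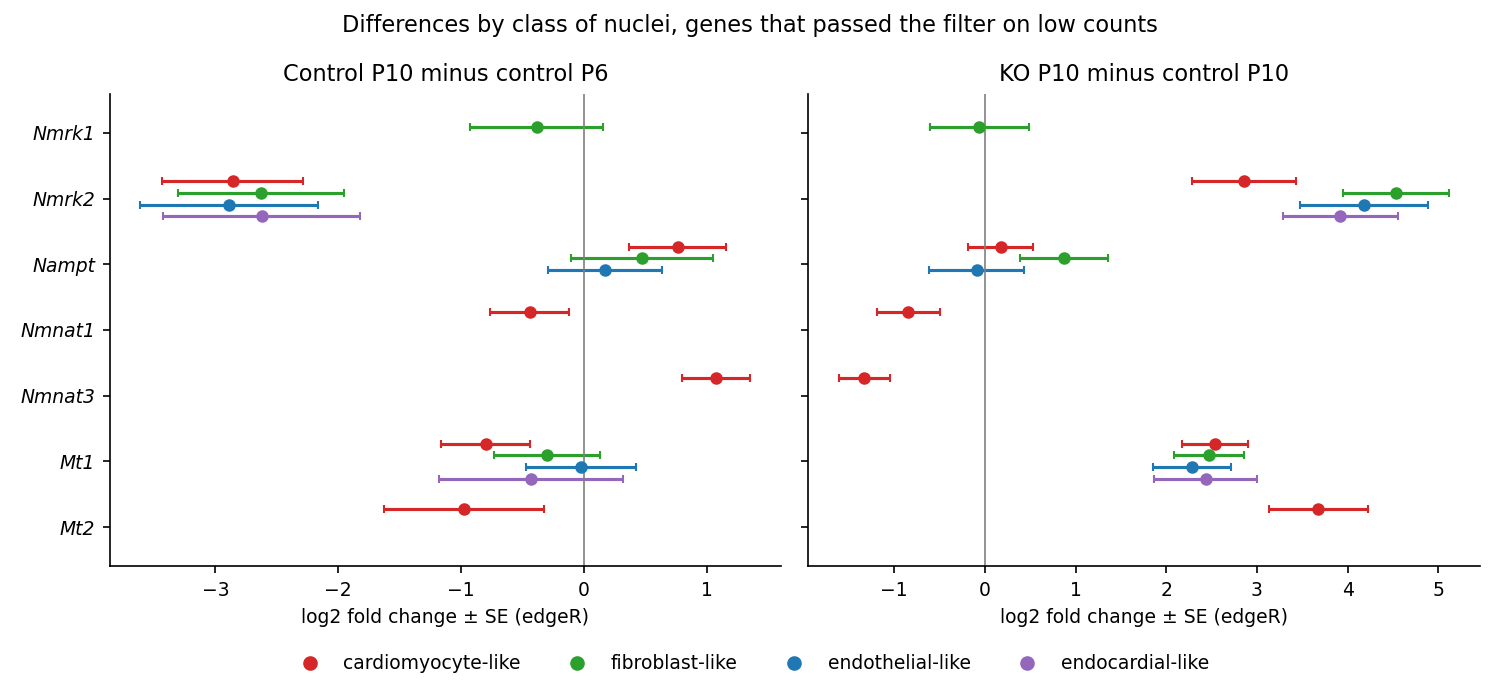
Log2 fold changes from edgeR with standard errors, control P10 minus control P6 at left and KO P10 minus control P10 at right, for each gene that passed the filter in a class of nuclei (colours). The fitted Nmrk2 difference with age is −2.62 to −2.89 in the 4 classes. Outside cardiomyocyte-like nuclei Nmrk2 passed the filter only through the knockout libraries, and its control groups overlapped in every class. Mt1 is 2.28 to 2.53 higher in the knockout in all 4.

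Nmrk2, Nmnat3 and Nmnat1 were higher in cardiomyocyte-like nuclei of the controls than in the mean of the endocardial-like, endothelial-like and fibroblast-like classes. In a fit over the 6 control libraries that made this comparison within each library, Nmnat3 was higher by 2.68 ± 0.19 on the log2 scale (edgeR, adjusted p = 1.52e-15), Nmrk2 by 2.23 ± 0.18 (1.03e-13) and Nmnat1 by 1.84 ± 0.27 (2.24e-07). Filtered class by class in the controls, each of these 3 genes passed only in cardiomyocyte-like nuclei, where they were high. The fit may have taken them in through that class, so their p-values are not free of the filter. Their levels elsewhere rest on few UMIs, such as 0 for Nmnat1 in endocardial-like nuclei at P6. Nampt did not differ beyond its error (0.03 ± 0.26, adjusted p = 0.932), and Nmrk1 and Mt2 did not pass the filter. Clusters were built without the 7 members, and 68% of 8525 genes were called in this fit, 34.9% higher and 33.1% lower in the cardiomyocyte-like class. Among these 4 classes, Nmnat3 was highest in cardiomyocyte-like nuclei in all 9 libraries, Nmrk2 in all 6 control libraries but in 0 of 3 knockout libraries, and Nmnat1 in 3 of 3 P6 but in 1 of 3 control P10 and 1 of 3 knockout libraries. Outside the 4 classes some means were higher. Pericyte-like nuclei had Nmnat3 at 76.9 ± 48.8 CPM at P6 and 171 ± 191 in control P10 (SD, n = 3), from 12 and 29 UMIs, and macrophage-like nuclei had 60.9 ± 34.4 in the knockout, from 7 UMIs. Mean Nmrk2 in the clusters of low Malat1 was 434 ± 391 at P6 and 39.1 ± 31.0 in control P10.

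Mt1 had no class order that held across scalings. The fit gave 0.57 ± 0.17 for cardiomyocyte-like nuclei (edgeR, adjusted p = 0.00404), but with library totals alone, which move the median of all genes in this comparison from 0.02 to −0.58, the value was −0.010 (adjusted p = 0.962). It also missed the threshold without P6 library 2 (0.36, adjusted p = 0.110). Among the 4 classes, Mt1 was highest in cardiomyocyte-like nuclei in 0 of 9 libraries. Endothelial-like nuclei had 78.6, 111 and 169 CPM at P6 and 74.8, 177 and 61.1 in control P10.

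**Figure D3:**
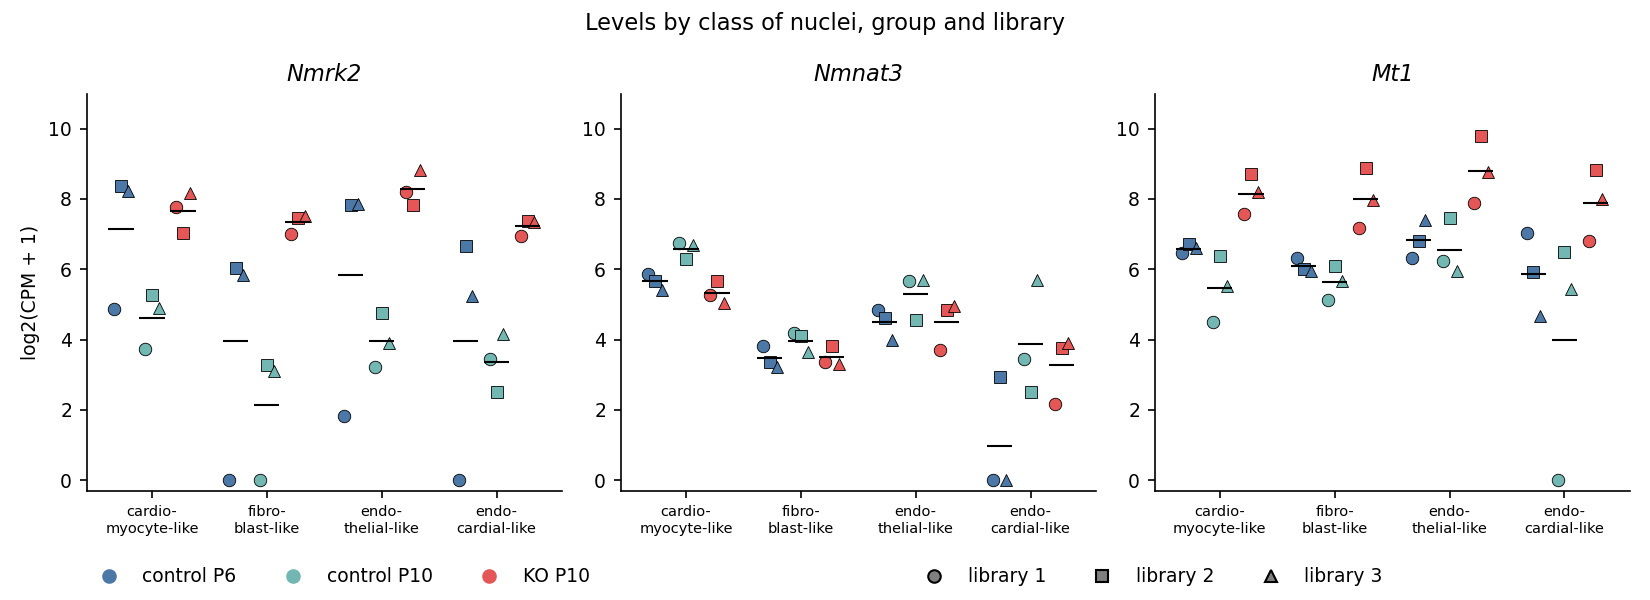
Levels of Nmrk2, Nmnat3 and Mt1 by class of nuclei, as log2(CPM + 1), with 1 marker per library, colours for the groups and a bar at each mean. In the knockout Nmrk2 lies between 122 and 452 CPM in all 4 classes, while Nmnat3 is highest in cardiomyocyte-like nuclei among these 4 classes in all 3 groups.

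In the 3 other classes the mean level of Nmrk2 was also lower in control P10 than at P6, with overlap. In fibroblast-like nuclei it was at 0, 65.2 and 55.8 CPM at P6 and at 0, 8.79 and 7.62 in control P10, from 48 and 10 UMIs. In endothelial-like nuclei it was at 2.54, 225 and 229 and then at 8.31, 26.0 and 14.0, from 129 and 24 UMIs. In endocardial-like nuclei it was at 0, 99.9 and 36.6 and then at 9.86, 4.72 and 16.9, from 18 and 4 UMIs. P6 library 1 was at or below the P10 range in all 3 of these classes, as it was within that range in cardiomyocyte-like nuclei.

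Nmrk2 passed the filter on low counts in these 3 classes only through the knockout libraries, where it was chosen for being high, so no call is given there. The fits over all 3 groups gave P10 minus P6 values of −2.63 ± 0.68, −2.89 ± 0.72 and −2.62 ± 0.80 on the log2 scale. The mean differences of log2(CPM + 1) over libraries were −1.83, −1.87 and −0.59, and exact two-sided permutation tests gave p = 0.6, 0.4 and 0.9. A test of whether the age effect in cardiomyocyte-like nuclei differed from that in the other classes gave −0.20 ± 0.49 for Nmrk2 (edgeR, adjusted p = 0.898), and none of the 5 members tested passed, where 6.63% of all genes did. At an unadjusted p under 0.05 there was 1, Nmnat1.

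In the knockout Nmrk2 was counted in every class of nuclei. Fibroblast-like nuclei had 129, 176 and 182 CPM, endothelial-like nuclei 295, 227 and 452 and endocardial-like nuclei 122, 164 and 163. Every one of these values was above every control P10 value of its class. Knockout minus control P10 was 4.54 ± 0.58, 4.18 ± 0.70 and 3.92 ± 0.63 on the log2 scale. Mt1 differed by 2.47 ± 0.39, 2.28 ± 0.43 and 2.43 ± 0.57 in the same classes.

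Free RNA in droplets can give a nucleus UMIs of genes it does not express. Nmrk2 is described here beside muscle RNAs in the same nuclei, and the part of free RNA was not tested. The level of Nmrk2 in fibroblast-like nuclei divided by that in cardiomyocyte-like nuclei of the same library was 0, 0.20 and 0.19 at P6, 0, 0.23 and 0.27 in control P10 and 0.59, 1.34 and 0.64 in the knockout. The ratio for Ttn, the gene of the sarcomere protein titin, was 0.12, 0.07 and 0.09, then 0.22, 0.27 and 0.32, and then 0.31, 0.40 and 0.32. For Ryr2, the calcium release channel, it was 0.08, 0.05 and 0.06, then 0.12, 0.14 and 0.16, and then 0.13, 0.12 and 0.11. For Myh6, another of the cardiomyocyte markers, it was 0.10, 0.08 and 0.07, then 0.41, 0.18 and 0.36, and then 0.39, 0.58 and 0.35. At P6 the ratio of Nmrk2 was above those of Ttn, Ryr2 and Myh6 in libraries 2 and 3 and was 0 in library 1. In each knockout library it was also above them. In every control P10 library it was below that of Ttn, and in libraries 1 and 3 also below that of Myh6. The ratios of the muscle RNAs also differed from each other, so none of them sets the value that free RNA would give. The ratio of Nmnat3 was 0.23, 0.19 and 0.20 at P6, 0.16, 0.21 and 0.11 in control P10 and 0.25, 0.26 and 0.28 in the knockout. Every knockout value was above every control value, from 3 to 11 UMIs per library in fibroblast-like nuclei.

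The summed level of 12 cardiomyocyte markers in fibroblast-like nuclei was 7245 to 8318 CPM at P6, 14210 to 21746 in control P10 and 20903 to 33509 in the knockout. Cardiomyocyte RNA counted outside cardiomyocyte-like nuclei thus differed between groups, and its part in the Nmrk2 values of the other classes was not tested. KO library 2, with the highest ratio, also had the lowest fibroblast markers, with 11906 CPM of 11 fibroblast markers in its fibroblast-like nuclei against 24219 and 25680 in the other knockout libraries.

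The share of nuclei with a UMI gave the same order of groups at equal depth. With each nucleus thinned to 500 UMIs, Nmrk2 was seen in 9.52% of cardiomyocyte-like nuclei at P6, 1.22% in control P10 and 9.35% in the knockout, as means of 3 libraries (15.8%, 2.83% and 18.9% before thinning; library medians of 772 to 973, 876 to 1077 and 880 to 1049 UMIs per nucleus). In fibroblast-like nuclei the thinned shares were 1.83%, 0.24% and 8.50% (3.63%, 0.44% and 11.1% before thinning; medians of 750 to 839, 680 to 844 and 635 to 747 UMIs). The control shares in fibroblast-like nuclei were several times under those in cardiomyocyte-like nuclei, and in the knockout the 2 classes were close. Mt1 was seen in 4.33%, 2.01% and 13.4% of thinned cardiomyocyte-like nuclei and in 3.27%, 2.09% and 12.0% of fibroblast-like nuclei. Nmnat3 was seen in 2.32%, 5.02% and 2.25% of cardiomyocyte-like and 0.23%, 1.09% and 0.46% of fibroblast-like nuclei.

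The 3 clusters of low Malat1 held a large part of the UMIs of Nmrk2, Mt1 and Mt2. Malat1 is an abundant long noncoding RNA that stays in the nucleus. The largest of these clusters was the one closest to the erythroid markers. These clusters took 19.3%, 22.8% and 38.6% of all UMIs of kept nuclei in control P6, control P10 and KO P10, but 45.6%, 37.9% and 63.2% of Nmrk2 and 55.4%, 58.0% and 59.5% of Mt1. Nmnat3 went the other way, with 12.2%, 7.83% and 19.3% there and 60.3%, 63.1% and 53.4% in cardiomyocyte-like nuclei. For Nampt the share in the clusters of low Malat1 was 15.2% at P6, 44.6% in control P10 and 48.2% in the knockout.

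Levels in these clusters ordered the groups much as cardiomyocyte-like nuclei did. Nmrk2 was at 4.49 (1 UMI), 771 and 526 CPM at P6, at 14.9, 74.0 and 28.3 in control P10 and at 437, 477 and 765 in the knockout. Mt1 was at 588, 502 and 507, then 192, 474 and 235, and then 429.8, 1404 and 849.5. P6 library 1 was again the exception for Nmrk2, and for Mt1 the knockout range met that of the controls at its low end. Nampt was at 13.5, 7.19 and 21.5 at P6 and at 61.9, 69.1 and 56.7 in control P10, with no overlap and no test run. In the knockout Nampt was at 45.6, 30.6 and 45.0, below every control P10 library there.

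**Figure D4:**
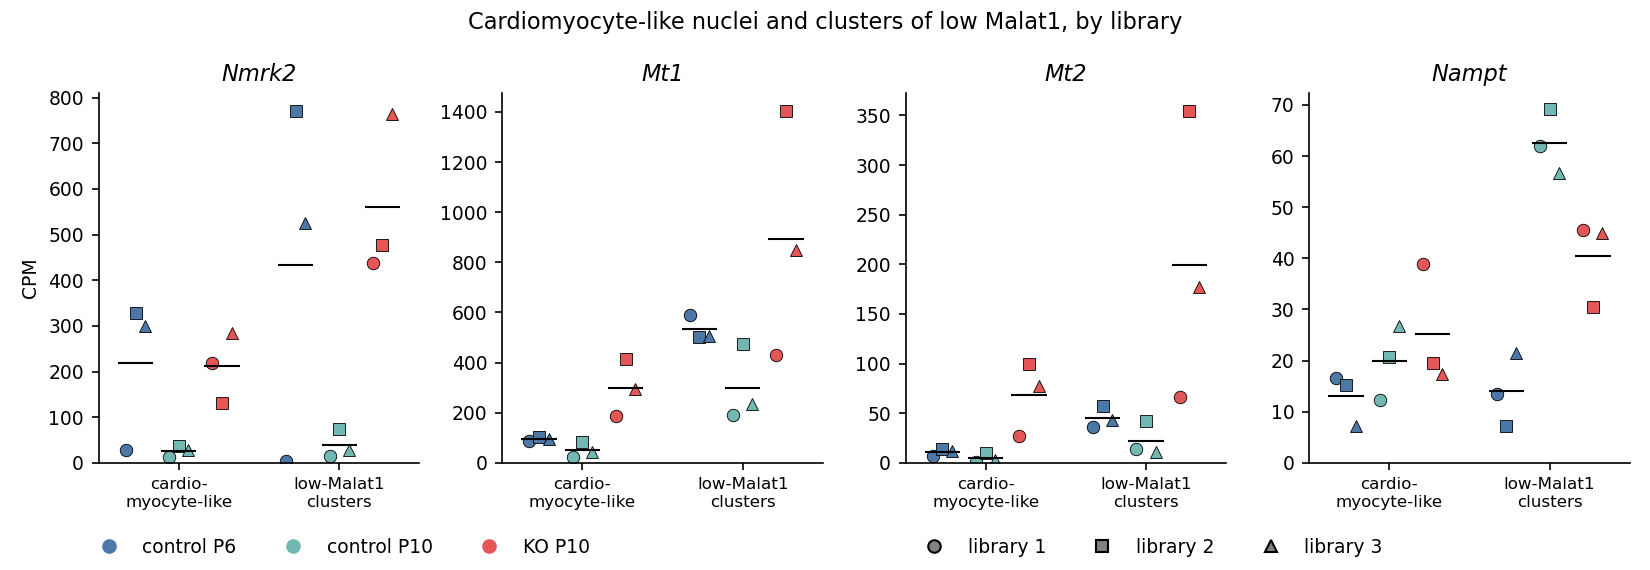
Levels of Nmrk2, Mt1, Mt2 and Nampt in CPM in cardiomyocyte-like nuclei and in the clusters of low Malat1, by group (colours) and library (marker shapes). Mt1 is higher in the clusters of low Malat1 than in cardiomyocyte-like nuclei in all 9 libraries.

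Mt2 made up a larger share of the metallothionein UMIs in knockout than in control cardiomyocyte-like nuclei, but not in every class. In cardiomyocyte-like nuclei Mt2 was 10.5% of Mt1 and Mt2 UMIs together at P6 (exact 95% binomial interval 7.48 to 14.3%), 8.90% in control P10 (5.59 to 13.3%) and 18.7% in the knockout (16.6 to 20.9%). By library the shares were 7.78%, 11.6% and 11.3%, then 5.88%, 11.3% and 5.19%, and then 12.7%, 19.3% and 20.8%. Over all barcodes, before any filter or clustering, they were 8.89%, 11.8% and 10.4%, then 8.93%, 9.57% and 5.14%, and then 12.8%, 19.4% and 16.9%. All 3 knockout libraries were above all 6 controls in both counts, but KO library 1 (12.7%, interval 8.45 to 18.03%) was close to P6 library 2 (11.6%, 6.93 to 17.99%). Summed over libraries, the shares at P6, control P10 and knockout were 15.5%, 5.19% and 18.5% in endothelial-like and 13.6%, 7.69% and 18.9% in endocardial-like nuclei. In fibroblast-like nuclei they were 10.7%, 11.1% and 15.1%, where the intervals of control P10 (5.46 to 19.5%) and knockout (11.7 to 19.1%) overlap, and in pericyte-like nuclei 22.2%, 19.2% and 21.3%. In macrophage-like nuclei they were 22.2%, 20% and 0%, the last from 58 UMIs. The set was chosen because Mt2 was high in the knockout, so its larger share there is a description and not independent of that choice. Intervals cover counting error only and not the spread between libraries. How reads shared by the 2 similar genes were counted is not given in the sources used here.

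**Figure D5:**
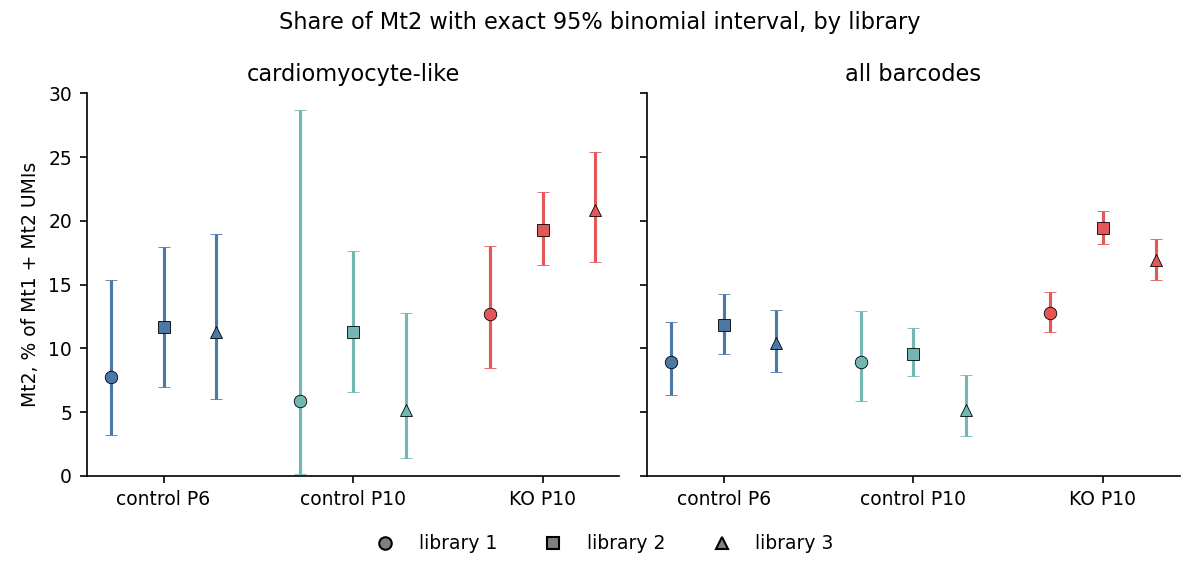
Mt2 as a percentage of Mt1 and Mt2 UMIs in cardiomyocyte-like nuclei and over all barcodes, 1 point per library with its exact 95% binomial interval. KO P10 libraries lie at 12.7 to 20.8% in cardiomyocyte-like nuclei, above the control libraries at 5.19 to 11.6%.

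Across the 9 cardiomyocyte-like sums, the genes whose log2 levels followed Nmrk2 most closely were Gadd45gip1 (Pearson r = 0.970), Atf4 (0.952), N6amt1 (0.944), Tatdn1 (0.943) and Anxa2 (0.943), out of 6729 candidates. For Mt2 they were Mt1 (0.986), Nppa (0.980), Cpsf7 (0.979), Ryr3 (0.974) and Acta1 (0.971). Between members, Nmrk2 and Nmnat3 had r = −0.89. These are descriptions over 9 libraries that share depth, groups and the library that stood apart.

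Genes of NAD metabolism other than the members were described in cardiomyocyte-like nuclei from 2 lists, and the counts of these and the following lists stand beside 17.5% of all genes called with age and 14.4% in the knockout. Of 19 other genes of NAD synthesis, 4 passed the filter and 0 passed the test in either direction, with age (median log2 −0.05) or in the knockout (−0.32), where the medians of all genes were −0.03 and 0.01. Of 26 genes that consume NAD or clear nicotinamide, 18 were tested. With age, 1 rose and 3 fell (median −0.30). Tnks, a PARP of telomeres and the Wnt pathway, rose by 1.25 ± 0.33 (edgeR, adjusted p = 0.0167), a call lost without P6 library 2 (1.28, adjusted p = 0.0615), P6 library 3 (1.01, 0.0984) or P10 library 1 (0.92, 0.0670).

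The 3 that fell were Sirt7 (−0.88, adjusted p = 0.0275), a nuclear sirtuin, Parp2 (−0.89, 0.0358), a DNA damage PARP, and Sirt4 (−1.31, 0.0442), a mitochondrial sirtuin, and DESeq2 put each of them past 0.05 (0.0699, 0.0601 and 0.0526). Each was also lost on leaving out at least 4 of the 9 libraries, such as P6 library 3 (Sirt7 −0.82, edgeR, adjusted p = 0.114; Parp2 −0.72, 0.175; Sirt4 −0.97, 0.236) or P10 library 3 (−0.85, 0.112; −0.86, 0.126; −1.47, 0.0986). In the knockout, 1 of the 18 passed: Sirt3, the main mitochondrial deacetylase, fell by 1.03 ± 0.24 (edgeR, adjusted p = 0.0106; list median −0.09). Its levels were 47.8, 89.1 and 70.8 CPM in control P10 and 33.6, 39.7 and 33.9 in the knockout, with no overlap, and the call was kept in every setting run for it.

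Genes of zinc and copper handling, which move the metals that metallothioneins bind, were split in direction with age. Of 29 listed, 15 were tested, and with age 2 rose and 1 fell (median 0.07): the zinc transporters Slc30a9 (0.78, edgeR, adjusted p = 0.0347) and Slc30a7 (1.07, 0.0404) rose and Slc39a3 (−1.87, 0.0148) fell. In the knockout 2 rose and 0 fell (median −0.04), Slc39a13 by 0.97 (adjusted p = 0.0286) and Slc39a11 by 1.18 (0.0356). Each of these 5 calls was lost without control P10 library 3 (Slc30a9 0.87, edgeR, adjusted p = 0.0727; Slc30a7 0.81, 0.209; Slc39a3 −1.80, 0.0843; Slc39a13 0.73, 0.185; Slc39a11 1.14, 0.139), and on leaving out at least 2 other libraries.

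Targets of NRF2 and oxidative stress gave 1 rise and 1 fall with age among 13 tested of 16 (median −0.21). Me1, malic enzyme, rose by 0.91 (edgeR, adjusted p = 0.0300) and Slc7a11, the cystine transporter, fell by 1.54 (0.0147). In the knockout 1 rose, Prdx1, a peroxiredoxin, by 1.07 (adjusted p = 0.0226; list median 0.54). All 3 calls were lost without control P10 library 3 (Me1 0.79, edgeR, adjusted p = 0.135; Slc7a11 −1.30, 0.0969; Prdx1 1.02, 0.107) and on leaving out at least 1 other library.

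Glucocorticoid-responsive genes, which share that inducer with Mt1 and Mt2, rose in cardiomyocyte-like nuclei in both comparisons where they passed the test. All 12 listed were tested, and with age 4 rose and 0 fell (median 0.48). Klf9, a transcription factor of the hormone response, rose from 22.9, 23.3 and 27.6 CPM to 72.3, 69.1 and 77.6 (1.71 ± 0.26, edgeR, adjusted p = 0.000722) and was kept in every setting run for it. Nr3c1, the glucocorticoid receptor itself, rose by 1.02 (adjusted p = 0.00800; lost without P6 library 3, 0.90, 0.0595). Zbtb16 rose by 1.69 (adjusted p = 0.0192; lost without P6 library 2, 1.69, 0.0719, P6 library 3, 1.59, 0.0846, or P10 library 1, 1.13, 0.0865). Tsc22d3 rose by 0.93 (adjusted p = 0.0398; lost without P6 library 2, 0.99, 0.0986, P6 library 3, 0.77, 0.179, P10 library 1, 0.96, 0.0620, or P10 library 3, 0.71, 0.195). Over the same ages Mt1 and Mt2 differed by −0.80 and −0.98 on the log2 scale, neither past the threshold in the main fit. A link between them and these genes was not tested.

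In the knockout 3 of the 12 rose and 0 fell (median 0.73). Fkbp5, a chaperone partner of the receptor, was at 5.46, 8.40 and 9.32 CPM in control P10 and at 21.0, 120.4 and 27.7 in the knockout (2.84 ± 0.60, edgeR, adjusted p = 0.00534). The highest value was in KO library 2, without which the difference was 1.44 and still passed the test. Cebpd rose by 2.03 (adjusted p = 0.0182) and was lost without P10 library 2 (2.04, 0.0581) or KO library 2 (1.69, 0.0856). Per1, a clock gene, rose by 1.25 (adjusted p = 0.0366) and was lost without P6 library 2 (1.23, 0.0516), P10 library 2 (0.93, 0.147), P10 library 3 (0.94, 0.219) or KO library 3 (1.12, 0.121). Fkbp5 also passed in fibroblast-like nuclei in the knockout (2.59, edgeR, adjusted p = 0.0135), where 3.22% of all genes did. Its level there was 212 ± 215 CPM against 32.5 ± 13.6 in control P10 (SD, n = 3). Zbtb16 passed in endothelial-like nuclei in the knockout (1.67, edgeR, adjusted p = 0.0328), where 240 of 6539 genes did. Klf9 rose with age in fibroblast-like (1.18, edgeR, adjusted p = 0.0138) and endothelial-like nuclei (0.99, 0.0182), where 13.1% and 25.6% of all genes were called. Nr3c1 (1.23, edgeR, adjusted p = 0.0233) and Tsc22d3 (1.58, 0.0215) rose with age in endocardial-like nuclei, where 497 of 4166 genes were called. In endothelial-like nuclei 3 of 10 tested rose with age and 2 fell, Sgk1 by 1.46 (edgeR, adjusted p = 0.00119) and Dusp1 by 1.26 (0.00969). With library totals alone 650 of 1733 called genes were higher with age in that class, against 829 of 1673. These lists describe genes near the members in function, and their part in the metallothionein values was not tested.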

How the data were processed

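Per the labels' protocols, nuclei of mouse ventricle were captured by Drop-seq, which tags each RNA molecule with a cell barcode and a UMI. The deposited files hold UMI counts, whole numbers for each gene in each barcode, made by the authors with STAR 2.5.2a on mm10, per the submitters' processing notes; strand use and the rule that chose barcodes are not given in the sources used here, and 0 columns of other samples were found. Members and gene lists were chosen with earlier results of these data known.

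Barcodes under 500 UMIs (5897), 464 barcodes of KO P10 library 2 shared with library 1, and the highest 5% of doublet scores in each library (1096) were left out. The 7 members were kept out of clustering (scanpy 1.11.5, 2000 variable genes, 30 components, Leiden resolution 1.0), and clusters were named from marker lists where at least 3 markers were raised over 1.5-fold. Counts were summed per library and class, and levels are CPM, UMIs per 1000000 UMIs of that class. Mitochondrially encoded genes were left out before the filter on UMIs and do not count in these sums. Class sums ran from 61354 UMIs in endocardial-like to 1610127 in cardiomyocyte-like nuclei, so a count of 0 allows up to 1.86 CPM in the deepest sum and 48.9 in the shallowest (3 UMIs), for counting error only.

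Tests used edgeR 4.0.16 (TMM, filterByExpr, quasi-likelihood) on all 3 groups, with p-values adjusted by Benjamini-Hochberg over all genes tested and a threshold of 0.05; DESeq2 1.42.0 was an alternative. The class comparison was fitted on the 6 control libraries with library as a block. Fits were tested on simulated data. Promoter windows came from RefSeq (7 of 7 members matched). Other genes are named where they passed the threshold in a list, at most 4 by smallest p, or were the 5 most like Nmrk2 or Mt2.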

Additional observations from a re-analysis of the deposited data

How the results depend on the processing

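No setting turned the direction of a member's age difference in cardiomyocyte-like nuclei that had passed the threshold. The 1 value that turned was Mt1 in cardiomyocyte-like nuclei against the other classes, −0.010 with library totals alone. That setting was chosen after seeing the data. Counts of members past the threshold stayed within 1.5 times in 146 alternatives and moved further in 31. These alternatives cover the knockout comparison too, which chose the members, so they describe the settings only. Over the libraries left out, the count with age was 1 to 3 in cardiomyocyte-like nuclei (2 with all libraries, where 17.5% of all genes were called). No such range is given for the 3 other classes, where Nmrk2 passed the filter only through the knockout libraries. None is given for the knockout comparison, which chose the members. With filter and fit on the control libraries alone, a setting chosen after seeing the data, the count with age was 2 in cardiomyocyte-like nuclei and 0 in the 3 other classes, where Nmrk2 then did not pass the filter. DESeq2 gave 0 with age in the 3 classes other than cardiomyocyte-like. With nuclei classed by their own marker UMIs the count with age was 0 in fibroblast-like nuclei. A minimum of 1000 UMIs, which tests fewer nuclei, gave 0 with age in endocardial-like nuclei. In the class comparison it put 2 members past the threshold, against 4 in the main fit, where 68% of all genes were called. The share of all genes called at 1000 UMIs is not given for that comparison. Over the libraries left out its count of members was 3 to 5. The cause of the other changes was not tested. Genes called in cardiomyocyte-like nuclei fell from 1755 with age to 860, 672 and 798 without P6 library 2, P6 library 3 and P10 library 3 and to 1006 at 1000 UMIs, and from 1445 in the knockout to 560 and 796 without P10 library 3 and KO library 3; over all settings those in fibroblast-like, then endothelial-like, then endocardial-like nuclei ranged from 322 to 1589 (1086), 988 to 1987 (1673) and 158 to 751 (497) with age, and from 75 to 379 (267), 34 to 336 (240) and 8 to 130 (56) in the knockout. Depth limits Nmrk1 and Mt2, which had as few as 5 and 1 UMIs in a cardiomyocyte-like sum.

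Libraries share replicate numbers across groups, but deviations of same-numbered libraries correlated at −0.13 to 0.27, so the numbers were not taken as pairs. With the replicate number as a block, Mt1 in cardiomyocyte-like nuclei differed by −0.95 with age and passed the threshold (adjusted p = 0.0279), and the block changed the count of members past the threshold from 2 to 3 there. Genes called went from 1755 to 1916 with age and from 1445 to 1483 in the knockout.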

Other observations

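The 473 macrophage-like nuclei had Mt1 without Mt2 in the knockout. Mt1 was counted with 12, 22 and 24 UMIs in the 3 knockout libraries, or 243, 886 and 510.0 CPM, and Mt2 with 0 of these 58 metallothionein UMIs (exact 95% upper limit of its share 6.16%). In pericyte-like nuclei of the same libraries Mt2 was 10 of 47 UMIs (21.3%, exact 95% interval 10.7 to 35.7%). Macrophage-like control nuclei held 5 Mt2 UMIs of 25 at P10 and 2 of 9 at P6. This contrast was chosen after its values were seen and was not tested.

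Nmrk2 in macrophage-like nuclei was at 0, 158 and 179.7 CPM at P6, at 24.5, 61.6 and 7.5 in control P10 and at 162, 161 and 276 in the knockout, from 0 to 13 UMIs per library. In the 500 pericyte-like nuclei it was at 0, 199.9 and 77.2, then 24.4, 9.99 and 0, and then 158, 292 and 304. P6 library 1 thus had 0 Nmrk2 UMIs in both classes, as in fibroblast-like and endocardial-like nuclei. Nmnat3 was at 390.5 CPM in the pericyte-like nuclei of control P10 library 1, from 16 UMIs in 32 nuclei, against 49.9 and 72.1 in the other control P10 libraries.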
